A study of Mus musculus with 16 samples.

Results

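The mouse cluster of miR-132 and miR-212 holds 2 microRNA hairpins that lie side by side and yield 4 mature miRNAs, mmu-miR-132-5p, mmu-miR-132-3p, mmu-miR-212-5p and mmu-miR-212-3p. They were taken by name from a deposited table of small RNA read counts, and all 4 were present among its 1372 analysed names. A miRNA is a short RNA cut from a hairpin, whose 5p and 3p arms are both sequenced. The arm kept in an Argonaute protein is the guide, and it pairs with messenger RNAs mainly through its seed, bases 2 to 8. miR-132 and miR-212 are transcribed together under CREB, the transcription factor activated by cyclic AMP and calcium signals, and are best known from neurons, where synaptic activity induces them. In monocytes and macrophages miR-132 is described as an early product of Toll-like receptor and viral signals, with the coactivator p300 and acetylcholinesterase among its targets.

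The 16 libraries were of dendritic cells cultured from marrow of 4 wild-type C57BL/6 mice, each of which gave 1 library to each of 4 groups. Cells of the quercetin plus LPS group received 25 µM quercetin, a plant flavonol, on days 5 and 7 and 1 µg/mL lipopolysaccharide (LPS, a bacterial ligand of TLR4) for 6 h on day 8. The quercetin group received the same quercetin without LPS, the LPS group the same LPS without quercetin, and the control group neither. Per the labels mice 1 to 3 were 8 weeks old and mouse 4 was 7 weeks old, they were male (1 label of mouse 2 gives no sex), and red cells were lysed before culture in all groups. No vehicle treatment is given in the labels. Each library is numbered by its mouse.

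Library totals ran from 6454535 to 9035375 counts with quercetin plus LPS, 7694885 to 8563815 with quercetin, 10096639 to 13943904 with LPS and 8660267 to 12529118 in control, with 823 to 997 miRNAs detected. Levels are given as CPM, each count as a share of its library's total, with TMM scaling, which aligns the bulk of miRNAs between libraries. A fold change is therefore relative to that bulk. Quercetin plus LPS 4 (15), quercetin 4 (-2.64), LPS 4 (14.2) and control 3 (12.2) scored above the rest of their groups on the second principal component, which took 22% of the variance. The main results are therefore also given without these 4 libraries. Quercetin plus LPS 1 (6.99) also stood above quercetin plus LPS 2 (-8.77) and 3 (-11.43), and was kept. Over all miRNAs, the deviations of control 3 from its group mean correlated with those of the other libraries of mouse 4 (mean r of 0.57 over 3 libraries) and not of mouse 3 (-0.27), while those of control 4 correlated with mouse 3 (0.31) and not with mouse 4 (-0.21). The labels were kept, and differences from control within mice 3 and 4 depend on them. A miRNA table holds no surface markers of dendritic cells. Its haematopoietic and myeloid miRNAs (miR-223-3p, both arms of miR-142a, miR-21a-5p, miR-511-3p and miR-155-5p) were all present, with a summed level of 171000 to 317000 CPM over the 16 libraries. Most of this sum was miR-21a-5p, with group means of 125000 to 157000 CPM, against 1800 to 2420 CPM for miR-223-3p. The sum therefore says little of the others. These are bulk cultures, so fewer cells of a type and less RNA per cell cannot be told apart.

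The hairpins and arms are shown because they fix which reads can be told apart and which members share a seed. In the RefSeq annotation of GRCm38.p6, Mir212 lies at chr11:75173388-75173478 and Mir132 at chr11:75173682-75173747, both on the plus strand, 203 bases apart. The deposited counts were made with mm9, per the submitters' processing notes, and were joined by name, not by position. In the GENCODE M21 annotation of the same assembly both hairpins fall in intron 1 (75172598 to 75173977) of the noncoding transcript 1700016P03Rik, with Mir212 starting 828 bases after its first base. The nearest RefSeq genes are Hic1, a transcriptional repressor, and Smg6, a nuclease of nonsense-mediated decay, on one side, and Ovca2 and Dph1, which acts in diphthamide synthesis, on the other. In the hairpins below, capitals mark the 5p and then the 3p arm, 5′ to 3′.
Mir212: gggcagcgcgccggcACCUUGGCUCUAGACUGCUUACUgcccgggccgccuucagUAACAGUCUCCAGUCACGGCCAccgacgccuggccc
Mir132: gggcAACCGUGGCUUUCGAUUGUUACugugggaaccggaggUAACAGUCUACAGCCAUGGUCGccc

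**Figure D1:**
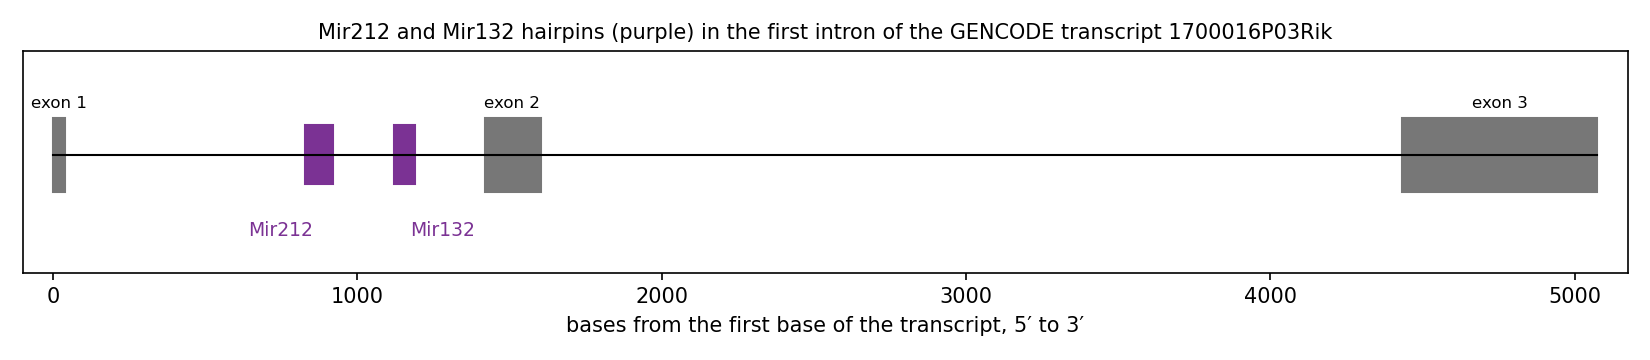
Map of the 2 hairpins (purple) and the 3 exons (grey) of 1700016P03Rik, with the distance in bases from its first base on the x axis. Mir212 starts 828 bases in, and 203 bases separate it from Mir132, both before exon 2.

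The mature arms carry 3 different seeds, in capitals here. The 3p arms share the seed AACAGUC, while each 5p arm has one of its own.
miR-212-3p: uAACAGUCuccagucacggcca
miR-132-3p: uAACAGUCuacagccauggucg
miR-212-5p: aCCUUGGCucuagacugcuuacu
miR-132-5p: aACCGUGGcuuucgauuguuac

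Counted from the 5′ end, the 3p arms of miR-212 and miR-132 are identical at 17 of 22 positions, including the first 9. From miR-212-3p to miR-132-3p the differences are C10A, U14C, C17U, C20U and A22G. Full-length reads of these arms therefore differ at 5 bases. Among the 1679 mature mouse miRNA names searched in RefSeq, no other miRNA has the seed AACAGUC, and the seeds of miR-132-5p and miR-212-5p occur in no other miRNA. The 5p arms match at 9 of 22 positions when laid side by side.

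The cluster's reads came mostly from 1 arm. miR-132-3p made up 87.0% ± 1.69 of the counts of the 4 members with quercetin plus LPS, 86.1% ± 3.42 with quercetin, 76.2% ± 9.61 with LPS and 77.8% ± 8.12 in control (SD, n = 4 each). In control it ranked 58th among all miRNAs by mean level and miR-212-3p 117th, against ranks of 158 for miR-212-5p and 197 for miR-132-5p. Among quercetin plus LPS cultures the ranks were 102 for miR-132-3p, 250 for miR-212-3p, 282 for miR-212-5p and 295 for miR-132-5p. Different sequences are captured unequally when libraries are made, so levels of different members are set side by side only to compare groups. The smallest count of any member was 63, for miR-132-5p in quercetin plus LPS 3, with a 95% exact Poisson interval of 48.4 to 80.6 that covers counting error only.

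All 4 members were lower after quercetin, with LPS and without it, and none passed the test in either LPS comparison. The cluster as a whole averaged 360 ± 17.7 CPM with quercetin plus LPS, 427 ± 57.0 CPM with quercetin, 1649 ± 288 CPM with LPS and 1676 ± 474 CPM in control (SD, n = 4 each). Every library with quercetin lay below every library without it, for each member and on the scale of raw counts as well. The share of all miRNAs with this full separation was not counted. Quercetin lay below control in all libraries for 11.1% of miRNAs, and quercetin plus LPS below LPS for 13.4%. Raw counts also follow library totals, which were lower in every quercetin library than in every control, and with quercetin plus LPS than with LPS. Both arms of miR-212 fell by more than both arms of miR-132 in the fitted values.

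miR-212-3p had the smallest p-value of the 568 miRNAs tested in each of the 3 comparisons of a quercetin group with a group without it. In quercetin libraries 1 to 4 it stood at 37.2, 29.5, 31.9 and 25.7 CPM, against 209, 300.1, 164 and 178 CPM in controls 1 to 4. The lowest control library was 4.43 times the highest quercetin library. Its log2 fold change in quercetin against control was -2.78 ± 0.28 (SE), a level 6.85-fold lower (edgeR adjusted p = 7.89e-06). With LPS the gap was wider in the fitted value. It stood at 19.9, 28.4, 24.2 and 17.1 CPM in quercetin plus LPS libraries 1 to 4, against 274, 307, 154 and 178 CPM in LPS libraries 1 to 4. Mice 1 and 2 had the highest levels without quercetin, both with LPS and in control. The log2 fold change of quercetin plus LPS against LPS was -3.35 ± 0.29, or 10.2-fold lower (edgeR adjusted p = 1.18e-06), the second largest fall among the miRNAs called.

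miR-132-3p, which shares its seed with miR-212-3p and is the most abundant member, stood at 300.4, 348, 442 and 383 CPM in quercetin libraries 1 to 4. In controls 1 to 4 it stood at 898, 1085, 2040 and 1283 CPM, so that control 3 lay well above the other controls. The log2 fold change was -1.85 ± 0.26, or 3.60-fold lower (edgeR adjusted p = 1.25e-04). It was -1.55 without control 3 (adjusted p = 2.47e-04). It stood at 289, 304, 339 and 319 CPM in quercetin plus LPS libraries 1 to 4, against 1223, 931, 1184 and 1724 CPM in LPS libraries 1 to 4. These quercetin plus LPS libraries were close to each other, with an SD of 6.84% of the mean, against 26.2% in LPS. The log2 fold change was -2.02 ± 0.26, or 4.04-fold lower (adjusted p = 4.56e-05).

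miR-212-5p, the less abundant arm of its hairpin, stood at 18.4, 13.3, 15.7 and 12.6 CPM in quercetin libraries 1 to 4, against 93.4, 113, 95.1 and 54.8 CPM in controls 1 to 4. It fell by 2.57 ± 0.36 on the log2 scale, to a level 5.93-fold lower (edgeR adjusted p = 1.27e-04). With LPS as well, it stood at 17.4, 10.9, 10.6 and 15.6 CPM in quercetin plus LPS libraries 1 to 4, against 128, 169, 42.7 and 86.8 CPM in LPS libraries 1 to 4. The LPS libraries were the most spread of any group of any member, with an SD of 51.0% of the mean. Even the lowest of them, LPS 3, was 2.46 times the highest quercetin plus LPS library. The log2 fold change was -2.97 ± 0.37 (adjusted p = 4.18e-05).

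miR-132-5p, the minor arm of miR-132, was the least abundant member in every group by mean level. It stood at 13.5, 12.5, 14.3 and 8.28 CPM in quercetin libraries 1 to 4, against 51.4, 49.4, 55.9 and 36.1 CPM in controls 1 to 4. The libraries labelled mouse 4 had the lowest level in both groups. The difference within mice ran from -2.12 to -1.93 on the log2 scale as labelled, and from -2.75 to -1.34 with controls 3 and 4 exchanged. The fitted log2 fold change, which does not use the pairing, was -1.99 ± 0.25 (edgeR adjusted p = 3.70e-05). The levels were 14.3, 8.48, 8.20 and 11.8 CPM in quercetin plus LPS libraries 1 to 4, against 53.1, 45.9, 38.7 and 55.1 CPM in LPS libraries 1 to 4. The log2 fold change was -2.17 ± 0.25 (adjusted p = 2.26e-05).

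**Figure D2:**
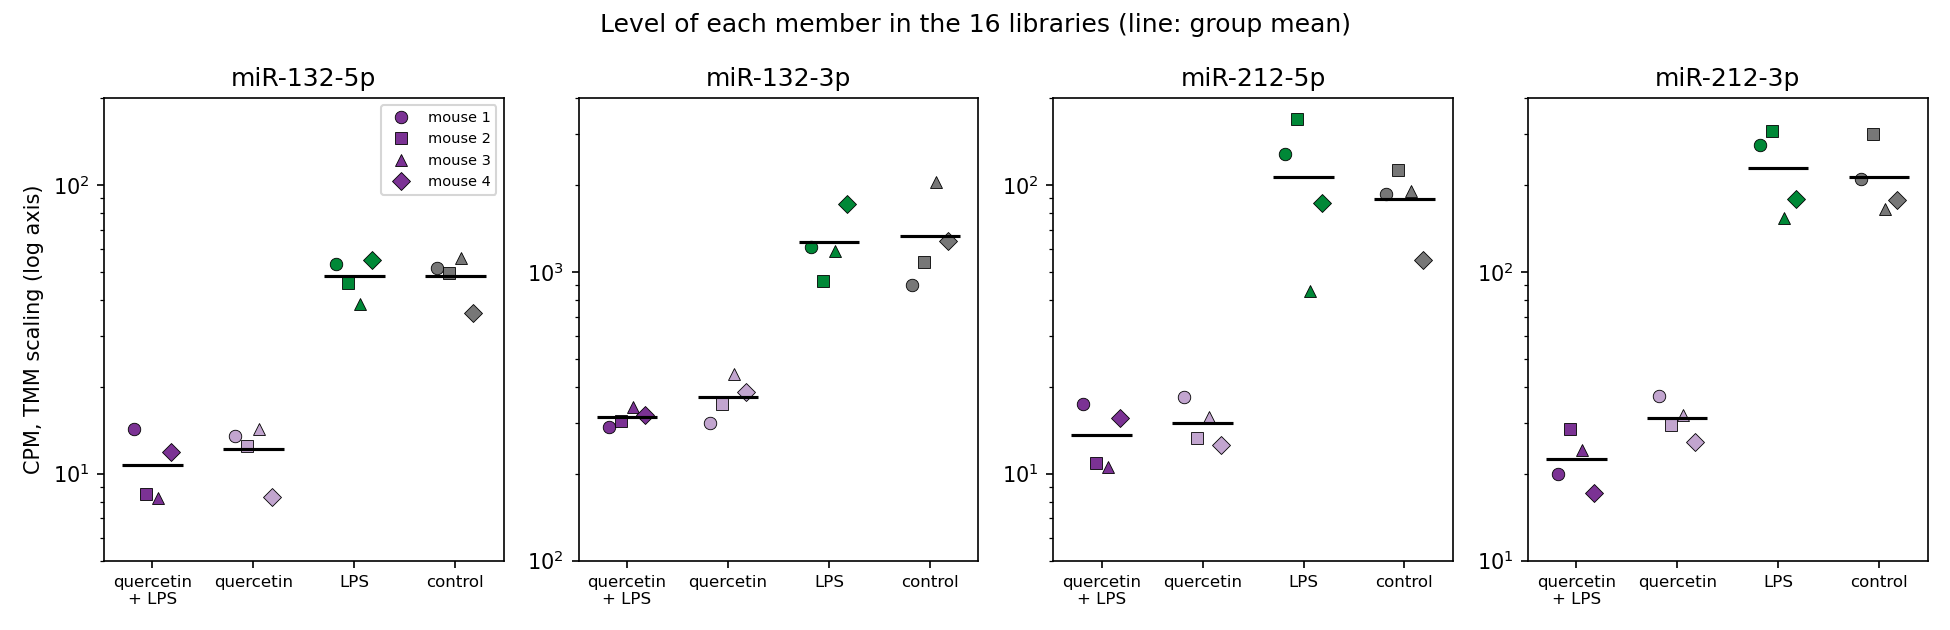
CPM of each member on a log axis in the 4 groups, with 1 symbol per mouse and a line at the group mean. For each member the 8 libraries with quercetin lie below the 8 without it, for example at 17.1 to 37.2 CPM against 154 to 307 CPM for miR-212-3p. The share of all miRNAs separated in this way was not counted.

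Read against the whole table, 8.98% of the 568 miRNAs were called lower in quercetin against control (edgeR adjusted p under 0.05), and 4 of 4 members were. For quercetin plus LPS against LPS, 14.3% were called lower, and again 4 of 4 members were. These shares depended on the scaling. In quercetin against control 51 were called lower and 39 higher, against 29 and 48 with upper quartile scaling. In quercetin plus LPS against LPS 81 were lower and 49 higher, against 66 and 67 with RLE, 54 and 71 with upper quartile and 50 and 75 with library size scaling. The 4 members were called lower under each of these. All 4 quercetin libraries lay below all 4 controls for 11.1% of miRNAs, and for 13.4% in the comparison with LPS. All 4 members were in both sets. Within mice as labelled, each member was lower in 4 of 4 mice in both comparisons (also with controls 3 and 4 exchanged), as were 18.7% of miRNAs in quercetin against control and 28.0% in quercetin plus LPS against LPS. Without the 4 libraries that stood apart, the log2 fold changes in quercetin against control were -2.80 for miR-212-3p, -2.46 for miR-212-5p, -1.77 for miR-132-5p and -1.59 for miR-132-3p (adjusted p 2.87e-04 to 0.00461). Those in quercetin plus LPS against LPS were -3.34 for miR-212-3p, -3.13 for miR-212-5p, -2.14 for miR-132-5p and -1.84 for miR-132-3p (adjusted p 1.08e-04 to 9.98e-04).

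Against control, which also serves the quercetin comparison, quercetin plus LPS lay at -3.25 ± 0.29 for miR-212-3p, -2.71 ± 0.37 for miR-212-5p, -2.17 ± 0.25 for miR-132-5p and -2.08 ± 0.26 for miR-132-3p on the log2 scale. All 4 members were called lower by edgeR (adjusted p 2.48e-06 to 8.68e-05), as were 10.2% of all miRNAs (58 lower and 39 higher, against 43 and 62 with upper quartile and 44 and 47 with library size scaling). No member's groups overlapped, as was the case in this direction for 10.4% of all miRNAs.

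The 3p arms that share a seed, summed, averaged 335 ± 22.3 CPM with quercetin plus LPS, 399 ± 57.4 CPM with quercetin, 1490 ± 293 CPM with LPS and 1540 ± 469 CPM in control (SD, n = 4 each). miR-132-3p supplied 93.3% ± 1.43 of this sum with quercetin plus LPS and 92.0% ± 2.13 with quercetin, against 84.0% ± 7.01 with LPS and 85.0% ± 6.45 in control.

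After LPS for 6 h no member passed the test. In LPS against control the log2 fold changes were 0.26 ± 0.34 for miR-212-5p, 0.10 ± 0.27 for miR-212-3p, -0.07 ± 0.25 for miR-132-3p and -8.0e-04 ± 0.24 for miR-132-5p. None of the 4 passed by edgeR (adjusted p = 1.00 each, none with an unadjusted p under 0.05) or by DESeq2 or limma-voom, in a comparison in which 0.528% of all miRNAs were called. The estimates ± 2 SE ran from -0.57 to 0.43 for miR-132-3p and from -0.42 to 0.95 for miR-212-5p, so a change of up to about these sizes in either direction is within the error. Mice 1 and 2 differed in direction for miR-132-3p, with log2 differences between LPS and control of 0.45 in mouse 1 and -0.22 in mouse 2. As labelled the difference was -0.78 in mouse 3 and 0.43 in mouse 4, but with controls 3 and 4 exchanged it was -0.12 and -0.24. That of miR-212-5p was 0.46 in mouse 1 and 0.59 in mouse 2. It was -1.15 in mouse 3 and 0.66 in mouse 4 as labelled, and -0.36 and -0.13 with these controls exchanged, so the sign in mouse 4 depends on the labels for both members.

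In cultures with quercetin, LPS was likewise followed by no call in the cluster. The log2 fold change of quercetin plus LPS against quercetin was -0.47 ± 0.27 for miR-212-3p (edgeR adjusted p = 0.689), with estimate ± 2 SE from -1.01 to 0.07. It was -0.24 ± 0.25 for miR-132-3p, -0.18 ± 0.24 for miR-132-5p and -0.14 ± 0.35 for miR-212-5p (adjusted p 0.790 to 0.902), where 0.352% of all miRNAs were called. Both 3p arms were lower with quercetin plus LPS in 4 of 4 mice, as were 16.9% of all miRNAs. The quercetin difference with LPS minus that without LPS was -0.57 ± 0.38 for miR-212-3p, -0.40 ± 0.49 for miR-212-5p, -0.18 ± 0.34 for miR-132-5p and -0.17 ± 0.36 for miR-132-3p on the log2 scale. None passed by edgeR (adjusted p 0.893 to 0.923), and 0.0% of all miRNAs did. Of the 568 tested, 26 had an unadjusted edgeR p under 0.05, a share below 0.05, and DESeq2 and limma-voom called none. The 2 SE range for miR-212-3p was -1.33 to 0.18.

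**Figure D3:**
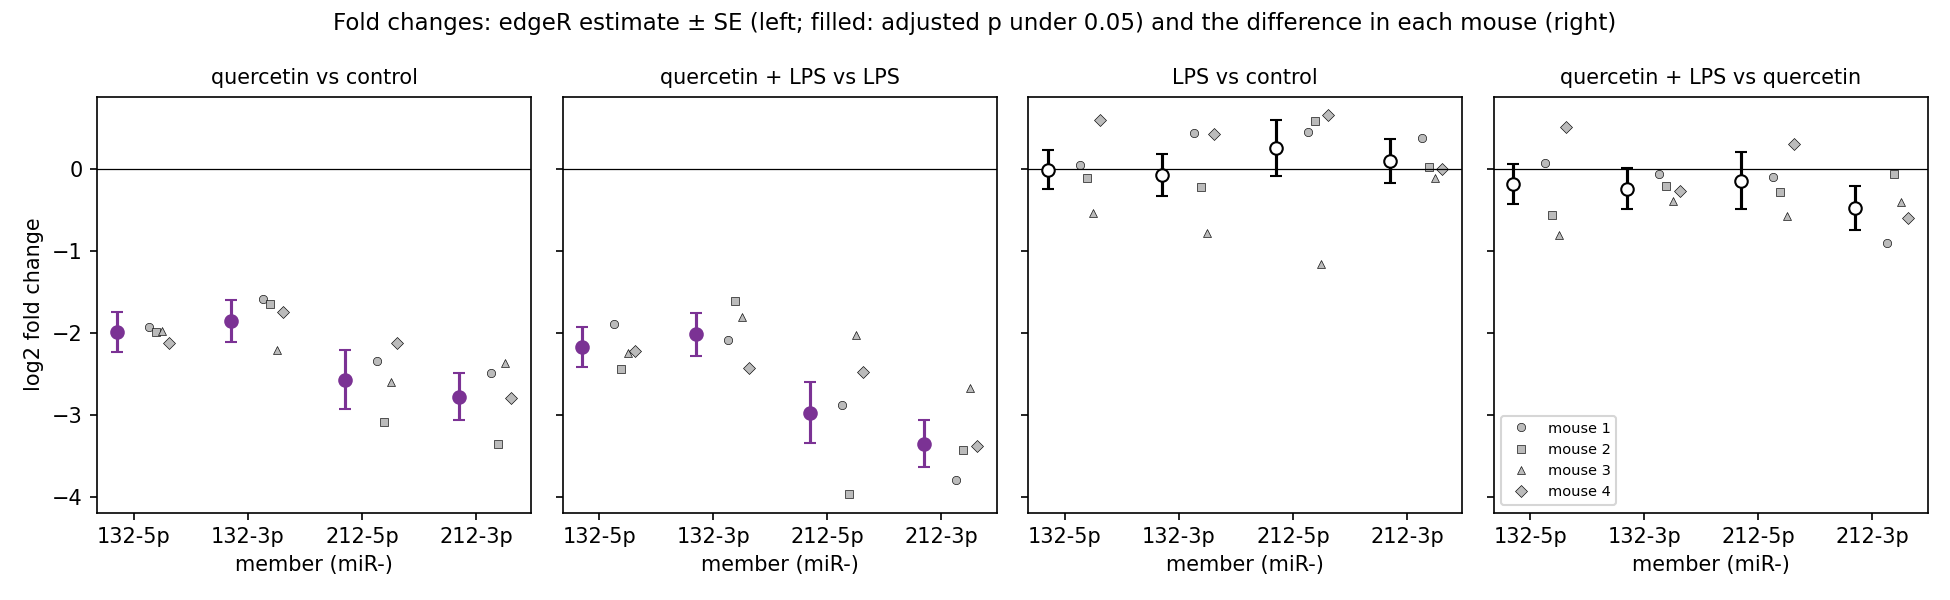
Log2 fold change of each member in 4 comparisons, as the edgeR estimate ± SE (large point, filled where the adjusted p is under 0.05) and as the difference in each mouse as labelled (small symbols). The points of both quercetin comparisons lie between -3.96 and -1.58, and those of LPS against control scatter around 0. In quercetin plus LPS against quercetin the 4 estimates lie between -0.47 and -0.14, with symbols of single mice on both sides of 0.

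In the order of mean levels, quercetin plus LPS was lowest and quercetin next for every member, and these neighbours did not differ beyond their spread by the tests above. Above the gap came LPS and control, which did not pass either, with LPS higher by mean for both arms of miR-212 and control higher for both arms of miR-132, although the 5p arm was at 48.2 CPM in each.

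Ratios of counts within a library do not depend on scaling. The ratio of miR-212-3p to miR-132-3p was 6.88%, 9.38%, 7.15% and 5.38% in quercetin plus LPS libraries 1 to 4, against 22.4%, 33.0%, 13% and 10.3% in LPS libraries 1 to 4. It was lower in 4 of 4 mice and the groups did not overlap, with a log2 difference of -1.33 ± 0.41 (SE). The exact two-sided permutation p was 0.0286, the smallest that 4 libraries against 4 can give, and 0.343 after Benjamini-Hochberg adjustment over 12 tests of 3 ratios in 4 comparisons. At least 7 of the 12 would have to reach the smallest p for any adjusted p to fall under 0.05, so the adjusted test could hardly pass in this design. The ratio was 12.4%, 8.49%, 7.23% and 6.72% in quercetin libraries 1 to 4, against 23.3%, 27.7%, 8.06% and 13.8% in controls 1 to 4. Here the groups overlapped through control 3, and the log2 difference was -0.95 ± 0.45 (exact permutation p = 0.0857, adjusted p = 0.514), again lower in 4 of 4 mice. Without control 3 it was -1.29 (adjusted p = 0.229). Whether miR-212-3p fell by more than miR-132-3p is not settled by these adjusted tests.

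The balance of arms within each hairpin was compared in the same family of tests. The 5p arm of miR-212 was at 65.3% ± 28.1 of its 3p arm with quercetin plus LPS, 48.3% ± 2.14 with quercetin, 44.6% ± 11.8 with LPS and 42.8% ± 11.5 in control (SD, n = 4 each). Quercetin plus LPS 1 and 4, at 87.6% and 91.4%, stood above 2 and 3, at 38.5% and 43.7%, while the quercetin libraries spanned only 45.1% to 49.8%. The 5p arm of miR-132 was at 3.48% ± 1.13 of its 3p arm with quercetin plus LPS, 3.38% ± 0.969 with quercetin, 3.94% ± 0.846 with LPS and 3.96% ± 1.45 in control. In quercetin against control the log2 difference of the arm ratio was 0.21 ± 0.20 for miR-212 and -0.20 ± 0.34 for miR-132 (exact permutation p = 0.314 and 0.600, adjusted p = 0.857 and 0.900). Between quercetin plus LPS and LPS it was 0.49 ± 0.39 for miR-212 and -0.21 ± 0.28 for miR-132 (exact permutation p = 0.286 and 0.514, adjusted p = 0.857 and 0.882). Both arms of a hairpin are cut from the same precursor, so they are not independent measurements of its transcript.

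**Figure D4:**
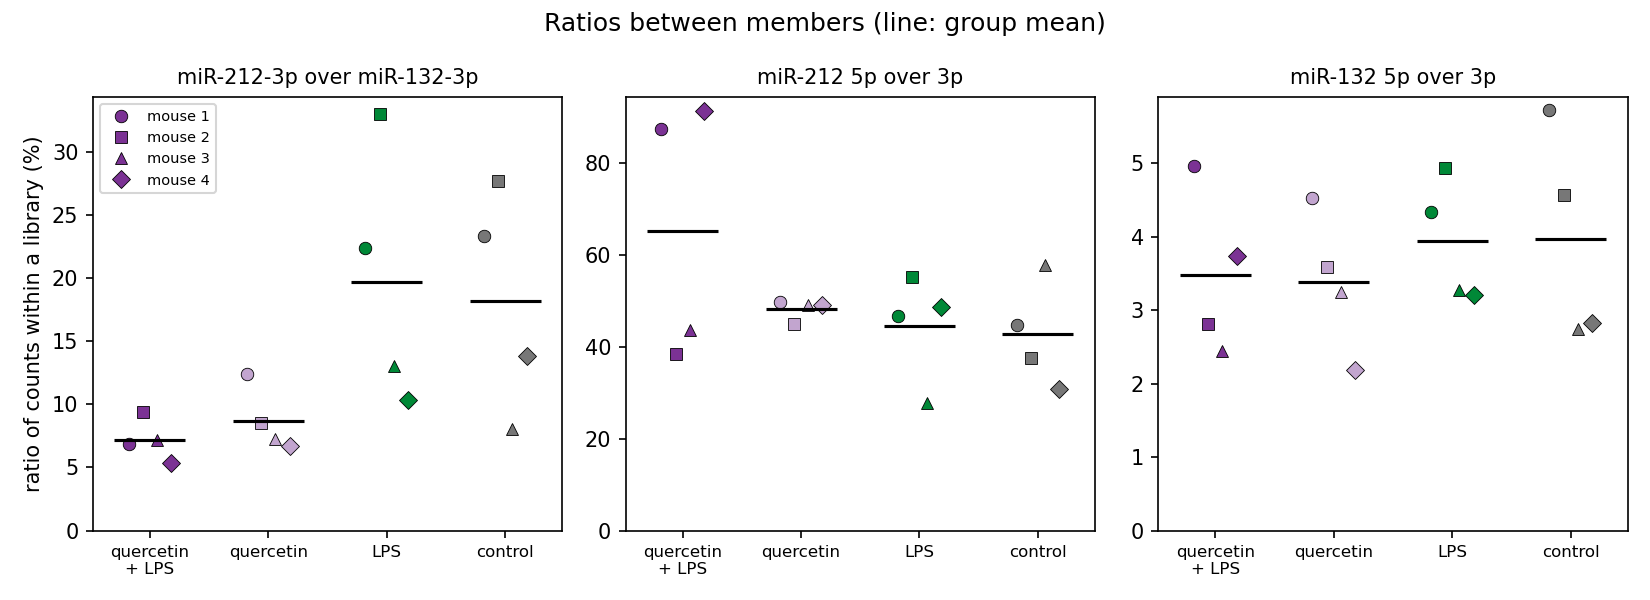
Ratios of counts within each library, in percent, by group, with 1 symbol per mouse and a line at the group mean. The ratio of miR-212-3p to miR-132-3p lies at 5.38% to 9.38% with quercetin plus LPS and 10.3% to 33.0% with LPS, while the arm ratios overlap between groups.

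Of the miRNAs annotated within 1 Mb of the cluster on chromosome 11, miR-22 was the abundant one. miR-22-3p, whose sequence lies 290025 bases away and which is among the most abundant miRNAs of these cells, was at 154000 ± 9420 CPM with quercetin and 150300 ± 24000 CPM in control (log2 fold change 0.04 ± 0.15, edgeR adjusted p = 0.895). It was at 137600 ± 19200 CPM with quercetin plus LPS and 150900 ± 13300 CPM with LPS (-0.13 ± 0.15, adjusted p = 0.579). miR-22-5p differed by -0.39 ± 0.33 (adjusted p = 0.482) and -0.61 ± 0.33 (adjusted p = 0.207) in the same comparisons, so neither arm passed. The arms of miR-6926, in the same interval, had 4 and 6 counts over all libraries and were not tested.

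Other miRNAs described as responding to TLR4 in myeloid cells gave a reference for the LPS comparisons. Of 15 listed, 2 rose in LPS against control, miR-155-3p (2.00 ± 0.35, edgeR adjusted p = 0.0106), from the hairpin of the inflammatory miR-155, and miR-222-5p (1.15 ± 0.21, adjusted p = 0.0106), and none fell by edgeR. The median of the list was 0.46, against 0.02 over all miRNAs, of which 0.528% were called. The list holds both arms of miR-155, miR-221 and miR-222, so its members are not independent. Without the 4 libraries that stood apart, or without mouse 4, none of the 15 passed in LPS against control. The same 2 rose in quercetin plus LPS against quercetin, by 2.30 ± 0.35 and 1.56 ± 0.21 on the log2 scale (edgeR adjusted p = 0.00169 and 6.93e-04). In that comparison 0.352% of all miRNAs were called. In quercetin against control 6 of the 15 fell and none rose, with a median of -0.75 against -0.05 over all miRNAs. Of all miRNAs, 8.98% were called lower there. The 4 with the smallest p were miR-222-5p (-1.66 ± 0.21), miR-147-3p (-1.66 ± 0.30), miR-155-3p (-1.56 ± 0.34) and miR-222-3p (-1.05 ± 0.26). Against LPS, 8 fell with quercetin plus LPS and none rose by edgeR, with a median of -1.25 against -0.13 over all miRNAs. Of all miRNAs, 14.3% were called lower in this comparison. By DESeq2 8 fell and miR-9-5p was called higher (log2 fold change 0.62, adjusted p = 0.0447). In the edgeR fit of this comparison miR-147-3p was at -1.73 ± 0.30, miR-125a-5p at -1.53 ± 0.36, miR-222-3p at -1.30 ± 0.26 and miR-222-5p at -1.25 ± 0.21. Without mouse 4 the count was 4 in quercetin against control and 5 in quercetin plus LPS against LPS. All 4 members of the cluster had larger falls than each of these in both comparisons, a contrast of fitted values that was not itself tested.

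Of 7 miRNAs linked to neuronal activity, as the cluster is, 4 were abundant enough to be tested. Only miR-138-5p, which acts at dendritic spines of neurons, fell, with a log2 fold change of -2.33 ± 0.54 in quercetin against control (edgeR adjusted p = 0.00847) and -2.26 ± 0.54 in quercetin plus LPS against LPS (adjusted p = 0.00799). Of all miRNAs, 8.98% and 14.3% were called lower in these comparisons. Without mouse 4 miR-138-5p did not pass in quercetin against control. It was at 62.4 ± 14.7 CPM with quercetin and 315 ± 162 CPM in control. miR-128-3p (385 ± 64.3 CPM with quercetin, 401 ± 101 CPM in control), miR-9-5p and miR-219a-5p did not pass by edgeR, and DESeq2 called miR-9-5p higher in quercetin plus LPS against LPS, as given above. miR-124-3p, the most typical neuronal miRNA, averaged 0.189 to 0.537 CPM in the 4 groups, and miR-137-3p had 1 count in all 16 libraries together.

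The miRNAs whose profile over the 16 libraries lay nearest to the mean profile of the members, each centred on its own mean, were miR-3968, miR-342-5p, miR-147-3p, miR-5099 and miR-146b-3p. Their mean absolute difference per library was 0.34, 0.36, 0.46, 0.47 and 0.52 on the log2 scale, against a median of 1.17 over the 308 miRNAs compared. The members themselves lay at 0.20 (miR-132-5p), 0.26 (miR-212-5p), 0.34 (miR-212-3p) and 0.36 (miR-132-3p) from that mean, to which each contributes. The nearest, miR-3968, was at 46.1 ± 25.9 CPM with quercetin plus LPS, 47.0 ± 11.7 CPM with quercetin, 296 ± 107 CPM with LPS and 281 ± 142 CPM in control. miR-342-5p, from an intron of Evl, was at 14.7 ± 2.38, 17.9 ± 2.72, 46.8 ± 5.36 and 63.7 ± 15 CPM in quercetin plus LPS, quercetin, LPS and control libraries. Between members, both arms of miR-212 differed by 0.30 per library and both arms of miR-132 by 0.33, while miR-132-3p and miR-212-3p differed by 0.66. The profiles share the same libraries and depth scaling, so these differences are a description.

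**Figure D5:**
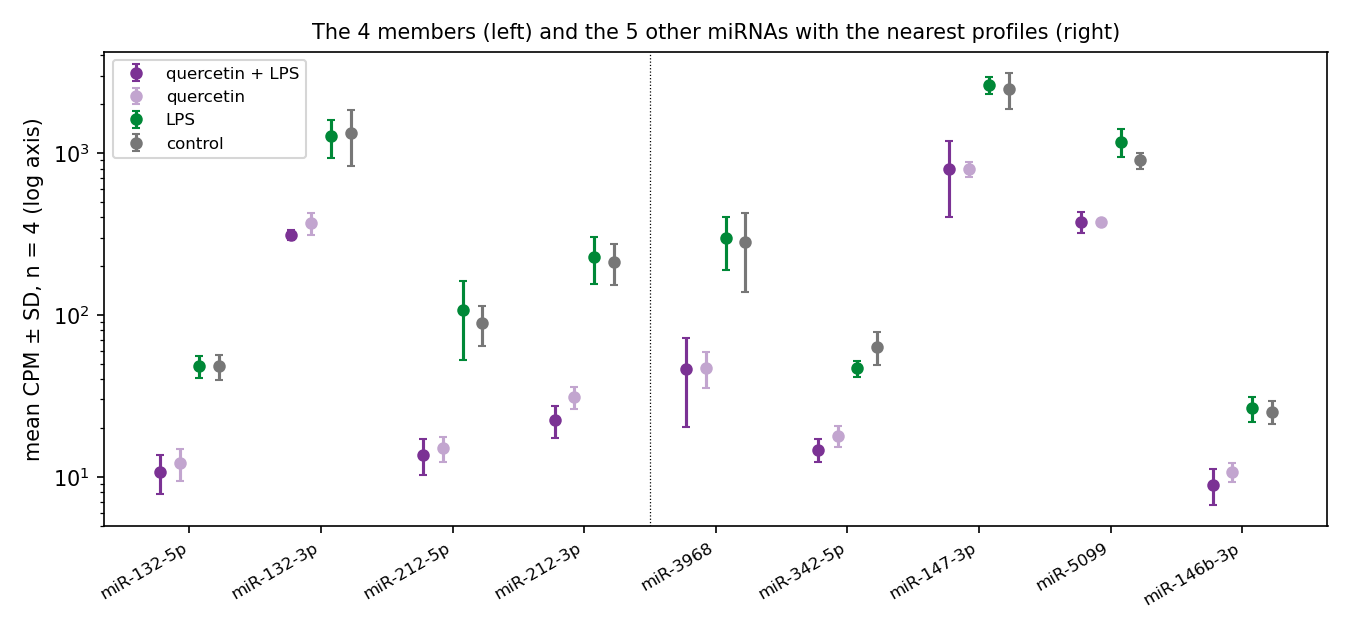
Mean CPM ± SD (n = 4) on a log axis for the 4 members, left of the dotted line, and the 5 miRNAs with the nearest profiles, right of it. In each, the quercetin plus LPS and quercetin means lie below those of LPS and control, for example 46.1 and 47.0 CPM against 296 and 281 CPM for miR-3968.

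Markers of another cell type moved with quercetin. All 5 erythroid miRNAs listed (miR-451a, both arms of miR-144, and miR-486a-5p with its copy miR-486b-5p) rose in quercetin against control and in quercetin plus LPS against LPS, where 6.87% and 8.63% of all miRNAs were called higher. The counts of miR-486a-5p and miR-486b-5p were equal in each group (for example 125064 with quercetin). The 5 are therefore not 5 separate measurements, and the sums below hold these counts under both names. Their summed level was 5040 to 13100 CPM with quercetin and 775 to 1770 CPM in control, and 2340 to 5840 CPM with quercetin plus LPS and 865 to 2800 CPM with LPS. Most of this sum was miR-486a-5p under both names, each at 3660 ± 1880 CPM with quercetin and 619 ± 207 CPM in control. miR-451a was at 128 ± 33.2 and 18.1 ± 4.94 CPM, so the sum says little of it or of miR-144. Without mouse 4, 3 of the 5 passed in each comparison. No erythroid marker was at 0 over a whole group. Of 5 mesenchymal miRNAs none passed in quercetin against control (83.5 to 1240 CPM summed with quercetin, 24.2 to 452 CPM in control). Of these, 3 rose in quercetin plus LPS against LPS (95.6 to 4470 CPM against 32.5 to 77.9 CPM summed), among them miR-143-3p, and DESeq2 called all 5. The median sum was 370 CPM with quercetin plus LPS and 45.5 CPM with LPS, against 128 CPM in control. In LPS against control the median log2 fold change of the 5 was -1.97, with none called. In quercetin plus LPS against control none of the 5 passed by edgeR and 1 by DESeq2. Summed, the 6 haematopoietic and myeloid miRNAs, mostly miR-21a-5p, were at 171000 to 209000 CPM with quercetin and 184000 to 221000 CPM in control. None of the 6 passed in either comparison by edgeR. Nor did any of 2 lymphocyte and 2 endothelial markers, or of the 2 neuronal markers tested (4 listed), of which DESeq2 called 1, miR-9-5p, higher in quercetin plus LPS against LPS. In that comparison 1 of 3 muscle and liver markers (2 tested) rose by edgeR, none without mouse 4 and 2 by DESeq2. The part of these markers in the fall of the cluster was not tested. Library totals also moved with quercetin. They were lower in every quercetin plus LPS library than in every LPS library, and in every quercetin library than in every control, and the part of this in the result was not tested either.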

How the data were processed

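The authors deposited 1 table of raw counts of reads per mature miRNA for 16 libraries. Per the submitters' processing notes cutadapt and the build mm9 were used. The aligner, counting rule and versions are not given in the sources used here. RNA was isolated with a miRNeasy kit and libraries made with TruSeq Small RNA chemistry, per the labels' protocols. Of 1381 rows, 1 row with text among its counts was left out, names on 2 rows were summed (4 names), and 4 rows whose counts look exchanged between neighbours in quercetin libraries were left out, which left 1372 names. In none of the rows beside a member were counts higher with quercetin by the amount the member's were lower.

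edgeR 4.0.16 in R 4.3.3 was used with filterByExpr, TMM scaling and a quasi-likelihood fit of 16 libraries with 1 coefficient per group. Adjusted p-values are Benjamini-Hochberg over the 568 miRNAs tested in each comparison, with a threshold of 0.05. SE is the log2 fold change divided by the square root of F. The steps were tested on simulated data. Ratios within a library used a pseudocount of 0.5 and exact permutation of libraries. Alternatives included other scalings and filters, DESeq2 1.42.0, limma-voom 3.58.1, and each library left out.

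The numbers of the labels mark the mouse, and the design names 4 mice, so equal numbers pair libraries, with a doubt about controls 3 and 4. Deviations from group means correlated at a mean r of 0.14 over 24 same-mouse pairs and -0.04 over 72 others. The members, lists and rules for named miRNAs were chosen with earlier results of these data known. Named miRNAs were the members, up to 4 called list members per comparison by smallest p, the 5 nearest profiles among miRNAs of at least 10 CPM, and miRNAs near the cluster. Lists covered TLR4, neuronal activity and markers of myeloid, erythroid, mesenchymal, lymphocyte, endothelial, neuronal, and muscle and liver cells. miR-9-5p, miR-21a-5p, miR-124-3p, miR-128-3p, miR-137-3p and miR-155-5p each stand in more than 1 list. Other list members named were chosen after their values were seen. Sequences are from RefSeq (GRCm38.p6), where all 4 members matched. No promoter of the cluster was analysed here.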

Additional observations from a re-analysis of the deposited data

Results flagged for a closer look

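The log2 ratio of the 5p to the 3p arm of miR-212 in quercetin replicate 2 was -1.15, apart from the other 3 quercetin libraries, the nearest gap being large for the group's own range. As percentages these were 45.1% in replicate 2 and 49.8%, 49.2% and 49.2% in replicates 1, 3 and 4. This group was the tightest of the 4 for this ratio (SD 2.14 percentage points). It was 1 of 32 groups of 4 values examined, and chance marks about 1 in 20.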

How the results depend on the processing

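In the 3 comparisons of a quercetin group with a group without it, the 4 members kept direction and call in all 252 alternative results. Each result is the value of a member in a comparison under an alternative setting. Members and comparisons under the same setting can share a fit, so these results are not separate fits and are not independent. Over these, log2 fold changes ran from -2.88 to -2.56 for miR-212-3p and from -1.97 to -1.55 for miR-132-3p in quercetin against control, and from -3.35 to -3.0 and from -2.02 to -1.67 in quercetin plus LPS against LPS (largest adjusted p of any member 0.00461). With the mouse as a replicate block the values in quercetin against control were -2.74 (miR-212-3p), -2.55 (miR-212-5p), -1.99 (miR-132-5p) and -1.81 (miR-132-3p), and the block changed no call of a member in any comparison. Signs turned only among values that never passed, and the cause was not tested. For LPS against control miR-132-3p was at 0.017 without the 4 libraries apart, miR-132-5p at 0.004 by limma-voom and 0.006 with the block, and miR-212-3p at -0.07 with library size scaling. The interaction of miR-132-3p was 0.028 with a mean count of at least 50 and 0.042 without mouse 4. With single libraries left out, LPS against control ran from -0.292 to 0.15 (miR-132-3p), -0.179 to 0.043 (miR-132-5p), -0.131 to 0.261 (miR-212-3p) and -0.1 to 0.481 (miR-212-5p). Quercetin plus LPS against quercetin ran from -0.289 to 0.052 (miR-132-5p) and -0.215 to 0.12 (miR-212-5p), and the interaction from -0.263 to 0.176 (miR-132-3p), -0.231 to 0.107 (miR-132-5p) and -0.495 to 0.085 (miR-212-5p). For the ratios in LPS against control the ranges were -0.115 to 0.239 (miR-132 arms), -0.088 to 0.267 (miR-212 arms) and -0.224 to 0.376 (miR-212-3p to miR-132-3p), and -0.161 to 0.19 for the miR-132 arms in quercetin plus LPS against quercetin. No adjusted p of a ratio could be expected to pass in this design, so the calls under these alternatives say nothing of the ratios' stability. The estimate for miR-212-3p to miR-132-3p stayed below 0 in both quercetin comparisons over all alternatives. It ran from -1.59 to -1.033 in quercetin plus LPS against LPS and from -1.294 to -0.701 in quercetin against control.

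Counts over all miRNAs were less steady. In quercetin against control 90 were called, but 46 without mouse 4, 45 without the 4 libraries apart, 55 without quercetin 3 and 54 without quercetin 4. In quercetin plus LPS against LPS 130 were called, but 70 with only the 2 groups fitted, 79 without mouse 4, 80 without LPS 1 and 81 without LPS 2, of which 36 and 36 were lower. In quercetin plus LPS against control 97 were called, with 61 from only the 2 groups, 63 without mouse 4 and 147 with the block and controls 3 and 4 exchanged. In LPS against control 3 were called, with 6 by DESeq2, 1 with library size scaling and 0 without mouse 4 or without the 4 libraries apart. In these last settings 19 of 573 and 20 of 590 tested had an unadjusted edgeR p under 0.05, shares below 0.05. Leaving out control 1, control 4, LPS 1 or LPS 2 gave 0 calls in LPS against control, and control 2 or control 3 gave 1. In quercetin plus LPS against quercetin 2 were called, with 4 by DESeq2, 4 with the exchanged block, 1 without mouse 4, 7 without quercetin 4 and 4 without quercetin plus LPS 2. With upper quartile scaling the split in quercetin against control was 29 lower and 48 higher, against 51 lower and 39 higher as reported, as the median of all miRNAs moved to 0.15, against -0.05. Without mouse 4, without the libraries apart and with the exchanged controls are settings chosen after seeing the data. Equal numbers may mark technical handling as well as the animal. The edgeR p-values as reported rest on the spread of libraries within groups and do not use the pairing. All libraries came from these 4 mice.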

Other observations

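The 3p arms of the 2 hairpins ranked the mice, as labelled, differently where quercetin was absent. The doubt about controls 3 and 4 given above applies here too. The 5p arm of miR-212 did not keep the order of its 3p arm in control, at 93.4, 113, 95.1 and 54.8 CPM in mice 1 to 4. With LPS, miR-212-3p stood at 274 and 307 CPM in mice 1 and 2 and at 154 and 178 CPM in mice 3 and 4, while in control it was at 209 and 300.1 CPM in mice 1 and 2 and at 164 and 178 CPM in mice 3 and 4. miR-132-3p did not follow this order, and its highest libraries were control 3 (2040 CPM) and LPS 4 (1724 CPM), which also lay highest of their groups on the second principal component. The ratio of miR-212-3p to miR-132-3p was therefore higher in mice 1 and 2 than in mice 3 and 4 with LPS and in control. With quercetin alone it kept that order at a lower level (12.4% and 8.49% against 7.23% and 6.72%), and with quercetin plus LPS it did not (6.88% and 9.38% against 7.15% and 5.38%). Mice 1 and 2 were put together after these values were seen, so no test is given.

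The 5p arms of the hairpins were closer to each other by mean ratio in the quercetin cultures. miR-212-5p stood at 127.5% ± 4.28 of miR-132-5p with quercetin plus LPS and at 126% ± 21.7 with quercetin, against 220% ± 113 with LPS and 183% ± 32.7 in control (SD, n = 4 each). The quercetin plus LPS libraries ran from 122% to 131.6%, and the LPS libraries from 110% to 369%. This ratio was not tested.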
